A study of Mus musculus with 23 samples.

Results

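RNA-seq of mouse bone-marrow-derived macrophages (BMDMs) after 4 h of LPS was compared with RNA-seq of the same kind of culture after 2 h of LPS. The comparison used 4 of the 23 samples of the series, replicates A and B at each time, and the fit also drew on the 6 RNA libraries at 0, 1 and 6 h for its estimate of spread. It covered the 4805 of 6397 listed genes whose mean over the 10 RNA libraries was at least 10 RPKM (mapped reads scaled to sequencing depth and gene length). BMDMs are macrophages grown for days from the marrow of C57BL/6 mice in medium supplemented with L929 cell supernatant, which supplies macrophage colony-stimulating factor. All cultures were C57BL/6 with no further allele named; those at 4 h and at 2 h, as at 1 and 6 h, received 100 ng/ml LPS, and those at 0 h received none. Each culture was also split for ribosome profiling, which sequences the mRNA fragments that ribosomes protect. Zfp36-bound fragments were sequenced separately from activated BMDMs of a Zfp36-V5 knock-in mouse, after 4 h of LPS. The study calls A and B biological replicates; the labels do not name the animals, so the p-values measure the spread between these cultures.

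LPS, which Gram-negative bacteria carry on their surface, is sensed by Tlr4 and drives a program in waves. NF-kB and MAP kinases induce immediate early and primary response genes, a parallel branch through IRF proteins induces type I interferon, and interferon acts back on the cells through its receptor to induce antiviral genes. Negative regulators, among them the mRNA-destabilizing protein Zfp36 (TTP), limit the early cytokines. The interval between 2 h and 4 h lies where the interferon-driven wave is known to build.

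The depth recovered from the values was 26.1 M and 26.1 M mapped reads at 4 h, against 13.0 M and 16.0 M at 2 h, so the 4 h libraries were deeper and their low values more precise. Replicates differed with a standard deviation of 0.19 log2 units across genes at 4 h and 0.17 at 2 h. The macrophage label fitted the macrophage markers. The listed genes held too few markers of other cells to show that such cells were absent. The macrophage identity list had 28 of 31 genes in the table, and their summed level was 22035 and 20045 RPKM at 4 h, against 21345 and 23074 RPKM at 2 h. Of the marker lists for other cells, 1 of 12 neutrophil, 0 of 12 lymphocyte, 0 of 10 erythroid, 1 of 8 dendritic and 1 of 8 fibroblast genes were in the table, at a summed 1.47 and 1.11 RPKM at 4 h against 1.504 and 1.71 RPKM at 2 h for neutrophils, 4.81 and 4.62 against 5.06 and 4.07 RPKM for dendritic cells, and 0.962 and 0.827 against 0.376 and 0.362 RPKM for fibroblasts. The defining neutrophil genes S100a8 and S100a9 were not in the table used here.

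Between 2 h and 4 h, 1113 of 4805 genes (23.2%) rose and 1641 (34.2%) fell at a limma adjusted p under 0.05, and 2051 did not pass. In 1111 of the genes that rose and 1637 of those that fell, both 4 h libraries lay on the same side of both 2 h libraries. Genes that pass the test are nearly bound to show this, so it is no separate support. Genes that did not pass can show it too, as Gapdh did, and the share over all tested genes is not given here. The increases were the larger ones: 135 genes rose by at least 2 log2 units and 44 fell by at least 2, whereas 691 of the increases and 1313 of the decreases were under 1 log2 unit. The median change over all tested genes was -0.12 log2 units. Changes are on the log2(RPKM + 1) scale, are given ± the standard error (SE) of the fit (n = 2 cultures at each time), and understate the change of genes near 1 RPKM. In these bulk samples, a change in the number of cells that express a gene and a change in RNA per cell cannot be told apart. The genes on either side of the threshold were 2410015M20Rik (log2 change -0.25, adjusted p 0.0499) and Acer3 (log2 change 0.27, adjusted p 0.0501).

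**Figure D1:**
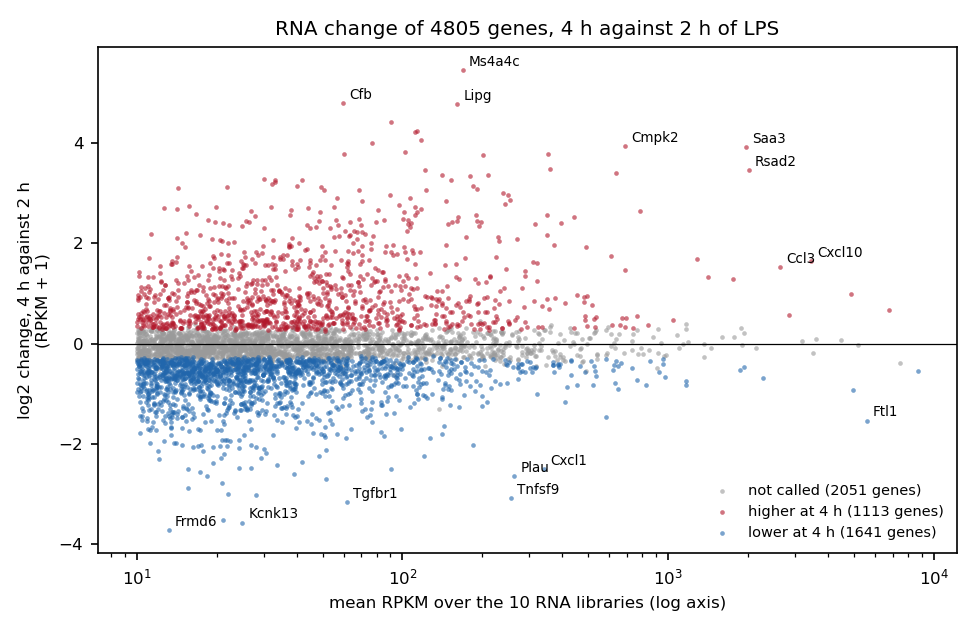
Change in RNA between 4 h and 2 h of LPS (log2 of RPKM + 1, vertical axis) against mean RPKM over the 10 RNA libraries (log axis), 1 point per tested gene. The 1113 genes that rose reach 5.46 (Ms4a4c) and the 1641 that fell reach -3.72 (Frmd6).

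The gene that rose most was Ms4a4c, a membrane protein of the MS4A family that interferon induces. The Ms4a4c libraries held 241 and 206 RPKM at 4 h, against 3.44 and 4.82 RPKM at 2 h. It was as low at 2 h as before LPS, where the libraries held 4.14 and 3.22 RPKM, and the groups were far apart (log2 change 5.46 ± 0.15; 4214 and 3609 reads at 4 h, against 30 and 52 reads at 2 h). Cfb, complement factor B of the alternative pathway, followed with a log2 change of 4.795 ± 0.19. Cfb measured 76.1 and 70.2 RPKM in the 4 h cultures, against 1.02 and 2.53 RPKM in the 2 h cultures. Lipg, endothelial lipase, had the lowest adjusted p of all tested genes (1.21e-13, limma). The level of Lipg was 272 and 263 RPKM at 4 h, against 8.65 and 8.996 RPKM at 2 h.

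Among the other genes of the 15 largest increases, Slc28a2, a concentrative nucleoside transporter, rose by 4.25 ± 0.14 log2 units. Slc28a2 had 139 and 105 RPKM at 4 h, against 5.19 and 5.59 RPKM at 2 h. Vcan, the matrix proteoglycan versican, rose by 4.22 ± 0.11. The Vcan libraries held 166 and 155 RPKM at 4 h, against 7.30 and 7.94 RPKM at 2 h. The ratio of the means was 22.6 for Slc28a2 and 21.02 for Vcan. Nos2, the inducible nitric oxide synthase, rose by 4.06 ± 0.14 log2 units. Nos2 measured 231 and 262 RPKM in the 4 h cultures, against 13.0 and 14.6 RPKM in the 2 h cultures. Saa3, an acute phase apolipoprotein made by macrophages, was already above its level before LPS at 2 h and rose by 3.91 ± 0.21. The level of Saa3 was 1655 and 1434 RPKM at 4 h, against 100.1 and 102 RPKM at 2 h. It went on to 8786 and 7551 RPKM at 6 h. Cd69, a C-type lectin that marks activation, rose by 3.48 ± 0.18. Cd69 had 1126 and 1135 RPKM at 4 h, against 98.7 and 102 RPKM at 2 h. Themis2, a signalling adaptor of myeloid and B cells, rose by 3.83 ± 0.12. The Themis2 libraries held 201 and 246 RPKM at 4 h, against 13.9 and 15.7 RPKM at 2 h. Ifi209 of the PYHIN family rose by 4.003 ± 0.20; its reads may be shared with the near-identical Ifi200 genes, as those of Ifit, Gbp and Oas genes may be with their copies, and single members of these families are uncertain to that extent.

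**Figure D2:**
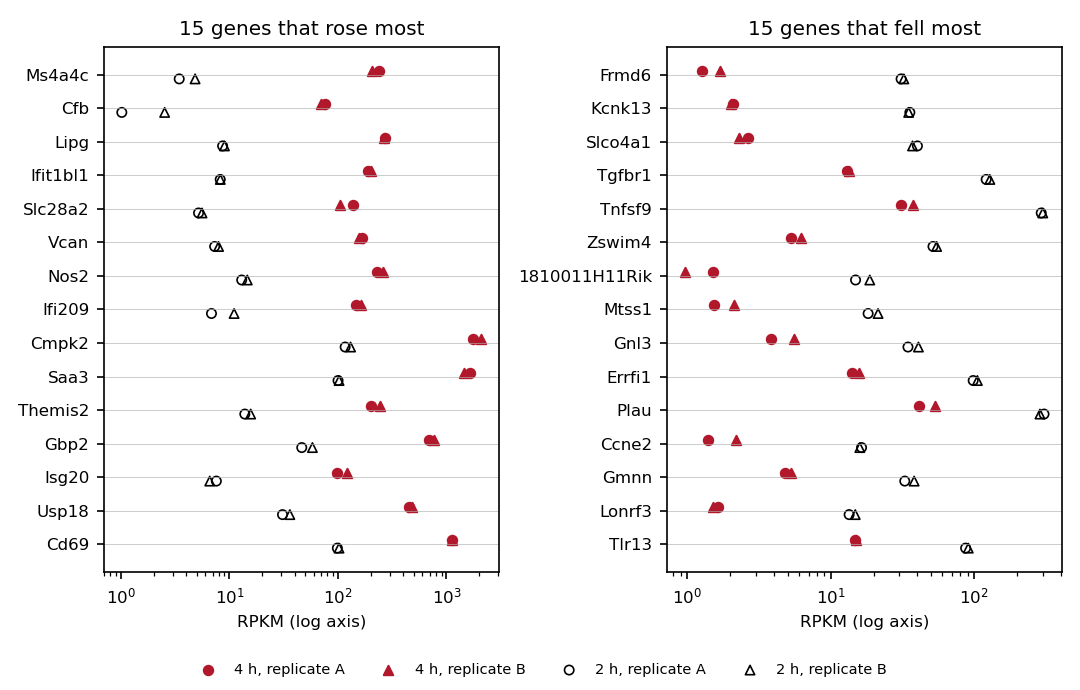
RPKM (log axis) of the 15 genes that rose most and the 15 that fell most, in each library: filled symbols for 4 h, open symbols for 2 h, circles for replicate A and triangles for replicate B. The libraries of the 4 h and 2 h cultures do not overlap for any of the 30 genes, since the choice required it; Saa3 ran from 1434 to 1655 RPKM at 4 h, above 100.1 to 102.4 RPKM at 2 h.

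Interferon-stimulated genes moved together. Of 69 tested members of the antiviral interferon-stimulated genes list, 66 rose, 0 fell and 3 did not pass (median log2 change 2.40). These genes hinder viral replication at many steps. The 3 members that did not pass, named after their values were seen, were Ifi27l2a, Slfn2 and Ifi27, with log2 changes between -0.04 and 0.03. The summed level of the 69 genes was 24110 and 25619 RPKM at 4 h, against 5258 and 5792 RPKM at 2 h, a ratio of the means of 4.50. The median change of the same list was 0.67 log2 units between 2 h and 1 h and 0.13 between 6 h and 4 h.

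Cmpk2, a mitochondrial nucleotide kinase encoded next to Rsad2, rose by 3.94 ± 0.15 log2 units. The level of Cmpk2 was 1745 and 2090.1 RPKM at 4 h, against 116 and 130.7 RPKM at 2 h. Usp18, the protease that removes Isg15 from proteins and dampens interferon receptor signalling, rose by 3.77 ± 0.12. Usp18 had 455 and 478 RPKM at 4 h, against 30.8 and 36.0 RPKM at 2 h. Isg20, an exonuclease, rose by 3.77 ± 0.13. The Isg20 libraries held 98.8 and 121 RPKM at 4 h, against 7.57 and 6.58 RPKM at 2 h. Rsad2, the radical-SAM enzyme viperin, reached 5366 and 5078 RPKM at 4 h, against 440 and 508 RPKM at 2 h, which put it among the 15 most abundant listed mRNAs at 4 h. Ifit1bl1, an Ifit family member, rose by 4.42 ± 0.14. Ifit1bl1 measured 189.5 and 204 RPKM in the 4 h cultures, against 8.22 and 8.23 RPKM in the 2 h cultures.

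All 7 tested interferon-induced GTPases rose (median log2 change 3.09). These GTPases attack the vacuoles that hold intracellular microbes. Gbp2, a guanylate-binding protein, rose by 3.78 ± 0.12 log2 units. Gbp2 had 694 and 763 RPKM at 4 h, against 46.4 and 58.2 RPKM at 2 h. Gbp3 (3.36 ± 0.18), Gbp7 (3.12 ± 0.14) and the immunity-related GTPases Igtp (3.07 ± 0.10) and Ifi47 (3.09 ± 0.10) rose by log2 changes of a like size. Ifi47 stands in both interferon lists. The promoters of these genes are shown because most carry the pattern that interferon-activated factors bind. A search on both strands for GAAANNGAA, the core of the interferon response element, in the 300 bases from 250 before to 50 after the start of each gene (RefSeq, GRCm38.p6, 3803 tested genes matched) found it in 6 of 7 GTPase promoters (85.7%), in 27 of 54 antiviral ones (50%), in 123 of 873 of all genes that rose (14.1%), in 80 of 1277 that fell (6.26%), and in 2317 of 27025 promoters in all (8.57%). Among the genes that rose by at least 2 log2 units it was in 38 of 106 (35.8%), and among those that fell by at least 2 in 4 of 34 (11.8%). The stretches before the start used in this search follow, 5′ to 3′ in the direction of the gene, with each match in capitals. On the opposite strand the match reads TTCNNTTTC. For Gbp3 and Ifit3b the start used lies downstream of the first base of the gene's full span (chr3:142560016 and chr19:34607530). The Gbp3 stretch thus lies partly, and the Ifit3b stretch wholly, inside that span.
Gbp2, chr3:142620543-142620662, + strand: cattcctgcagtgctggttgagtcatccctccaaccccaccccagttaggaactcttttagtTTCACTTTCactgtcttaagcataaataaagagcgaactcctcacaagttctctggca
Gbp3, chr3:142559924-142560043, + strand: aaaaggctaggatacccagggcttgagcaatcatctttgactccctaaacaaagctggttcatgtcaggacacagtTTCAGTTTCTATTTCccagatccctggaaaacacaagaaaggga
Gbp7, chr3:142530216-142530335, + strand: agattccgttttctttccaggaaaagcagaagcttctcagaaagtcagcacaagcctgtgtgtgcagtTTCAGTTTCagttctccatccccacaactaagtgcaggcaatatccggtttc
Igtp, chr11:58199436-58199555, + strand: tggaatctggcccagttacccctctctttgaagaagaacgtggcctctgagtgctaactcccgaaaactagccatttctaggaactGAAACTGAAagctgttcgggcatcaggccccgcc
Ifit3b, chr19:34607757-34607856, + strand: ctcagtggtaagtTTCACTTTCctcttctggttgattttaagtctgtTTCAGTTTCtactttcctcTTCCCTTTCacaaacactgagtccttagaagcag
In Gbp3 a pair of matches overlaps, and Ifit3b has 3. Ifit3b rose by 3.23 ± 0.12 log2 units. The Ifit3b libraries held 86.4 and 94.9 RPKM at 4 h, against 8.70 and 8.88 RPKM at 2 h. A match is a description of the sequence and says nothing about occupancy in these cells.

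Genes of cytokine and interferon signalling moved in both directions. Of 24 tested members of the STAT, IRF and JAK transcription and signalling list, 13 rose, 4 fell and 7 did not pass (median log2 change 0.54). Irf7, which amplifies interferon production, rose by 3.36 ± 0.16 log2 units. The level of Irf7 was 337 and 378 RPKM at 4 h, against 31.2 and 37.0 RPKM at 2 h. Stat2, a transcription factor that interferon receptors activate, rose as well (2.71 ± 0.14). Stat2 had 77.5 and 87.5 RPKM at 4 h, against 10.9 and 12.7 RPKM at 2 h. Irf8 rose by 2.47 ± 0.14 and Irf2 by 2.47 ± 0.17. The Irf2 libraries held 30.8 and 44.6 RPKM at 4 h, against 5.79 and 5.94 RPKM at 2 h. The 4 members that fell, named after their values were seen, were Ifngr1, a chain of the interferon gamma receptor (-1.29), Il6st, the shared receptor chain gp130 (-1.27), Stat6 (-0.53) and Il10rb (-0.51).

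Sensors of viral nucleic acid had the larger increases among receptors that detect microbes. Of 20 tested members of the pattern recognition receptors list, 12 rose, 2 fell and 6 did not pass (median log2 change 0.58). Zbp1, a sensor of left-handed nucleic acid, rose by 3.47 ± 0.16 log2 units, Tlr3, an endosomal receptor for double-stranded RNA, by 3.26 ± 0.11, and the cytosolic RNA helicases Ddx58 (RIG-I) by 2.97 ± 0.16, Dhx58 by 2.73 ± 0.13 and Ifih1 (MDA5) by 2.52 ± 0.13. The level of Tlr3 was 64.2 and 63.0 RPKM at 4 h, against 5.98 and 5.47 RPKM at 2 h. Zbp1 had 213 and 267 RPKM at 4 h, against 17.5 and 24.3 RPKM at 2 h. Against these, Tlr13, which senses bacterial ribosomal RNA, was among the 15 largest decreases (log2 change -2.50 ± 0.10). The Tlr13 libraries held 14.7 and 14.997 RPKM at 4 h, against 87.0 and 90.8 RPKM at 2 h. The libraries of Tlr13 were well apart, and it stood at 28.7 and 28.0 RPKM at 6 h. The LPS receptor gene Tlr4 had a log2 change of -0.05 and its partners Cd14 and Ly96 0.14 and 0.25, and none of the 3 passed the test.

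Of 19 tested members of the antigen processing by MHC class I and immunoproteasome list, 16 rose, 0 fell and 3 did not pass (median log2 change 1.35). Tap1 and Tap2 encode the transporter that brings peptides to class I molecules, and Psmb9 and Psmb10 encode catalytic subunits of the immunoproteasome. The level of Tap1 was 372 and 335 RPKM at 4 h, against 36.3 and 41.6 RPKM at 2 h. Tap2 had 134 and 124 RPKM at 4 h, against 22.1 and 24.1 RPKM at 2 h. Tap1 rose by 3.15 ± 0.12 log2 units and Tap2 by 2.43 ± 0.12. Psmb10 rose by 2.14 ± 0.13, Psmb9 by 1.77 ± 0.11, and the nonclassical class I gene H2-T24 by 2.56 ± 0.15. The 3 that did not pass were the general chaperones Pdia3, Calr and Canx, with log2 changes from -0.08 to 0.01. By contrast, of the 31 constitutive proteasome subunits 8 rose and none fell (0 of 31), with a median of 0.20. Increases, at 25.8%, were near the 23.2% of all tested genes, of which 34.2% fell. Psma5 (0.97 ± 0.20), Psma6 (0.86 ± 0.11), Psma4 (0.53 ± 0.11), Psmd7 (0.49 ± 0.12) and Psma3 (0.48 ± 0.17) were the 5 with the larger changes, and Psma3 no longer passed without replicate B at 2 h (adjusted p 0.18) or replicate A at 4 h (adjusted p 0.19).

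Cytokines divided. Of 12 tested members of the inflammatory cytokines list, 9 rose, 2 fell and 1 did not pass (median log2 change 0.90). The median was -0.26 over the members that had at least 10 RPKM in every library. Il6, Il1b and Il27, under 10 RPKM at 0 h, were not among these members. Il6, which drives the acute phase response, rose by 2.97 ± 0.12 log2 units. Il6 measured 773 and 845 RPKM in the 4 h cultures, against 100.3 and 105 RPKM in the 2 h cultures. It then stood at 341 and 325 RPKM at 6 h, so that 4 h held the highest level of the 5 times. Il1rn, the antagonist of the interleukin 1 receptor, rose by 2.65 ± 0.14, more than Il1b, the agonist, at 1.33 ± 0.23. The level of Il1rn was 797 and 909 RPKM at 4 h, against 129 and 141 RPKM at 2 h. Il1b had 2623 and 3188 RPKM at 4 h, against 1117 and 1180.4 RPKM at 2 h. Il27 rose by 2.05 ± 0.15. The Il27 libraries held 662 and 638 RPKM at 4 h, against 148 and 165 RPKM at 2 h. Il10, the main anti-inflammatory cytokine, rose by only 0.41 ± 0.15 (limma adjusted p 0.032), with 202 and 199 RPKM at 4 h, against 135 and 168 RPKM at 2 h; without replicate A at 2 h its change was 0.25 (adjusted p 0.27), without replicate A at 4 h 0.40 (adjusted p 0.12), and without replicate B at 4 h 0.43 (adjusted p 0.091). Tnf, the early cytokine, had 1091 and 1294 RPKM at 4 h, against 1488 and 1356 RPKM at 2 h, and did not pass the test (log2 change -0.26 ± 0.12, adjusted p 0.091). Tnf passed with quantile normalization (-0.47, adjusted p 0.0020), without replicate B at 4 h (-0.38, adjusted p 0.032) and with limma-voom on recovered reads (-0.26, adjusted p 0.041). The 2 members that fell were Pdgfb, a platelet-derived growth factor subunit (-1.53 ± 0.13), and Tgfb1 (-0.58).

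Of 13 tested members of the chemokines list, 6 rose, 3 fell and 4 did not pass (median log2 change 0.28). The 3 that fell were Cxcl1, a neutrophil attractant (-2.49 ± 0.14), Ccl6 (-0.71) and Pf4 (-0.42). The level of Cxcl1 was 77.4 and 92.8 RPKM at 4 h, against 479 and 484 RPKM at 2 h. Cxcl1 had been at 1067 and 1168 RPKM at 1 h. In contrast, Ccl12, a monocyte attractant, rose by 2.43 ± 0.20. Ccl12 had 398 and 409 RPKM at 4 h, against 71.9 and 76.7 RPKM at 2 h. Ccl5 (1.75 ± 0.16), Cxcl10 (1.65 ± 0.18), which attract T cells, and Ccl3 (1.52 ± 0.15) rose too. The Cxcl10 libraries held 8300.1 and 10071 RPKM at 4 h, against 2855 and 2969 RPKM at 2 h. Ccl3 measured 6027 and 7628 RPKM in the 4 h cultures, against 2513 and 2208 RPKM in the 2 h cultures. With Ccl4, at 10867 and 11834 RPKM at 4 h against 5778 and 5680 RPKM at 2 h, Cxcl10 and Ccl3 were among the 4 most abundant listed mRNAs at 4 h. The promoters of Cxcl10, Cxcl1 and Il6 are shown because they hold GGANTTTCC, the core of an NF-kB site, which was in 3 of 8 chemokine promoters (37.5%), in 2 of 9 cytokine promoters (22.2%) and in 333 of 27025 promoters in all (1.23%). Cxcl10 also holds the interferon response core, before the NF-kB core.
Cxcl10, chr5:92349030-92349109, - strand: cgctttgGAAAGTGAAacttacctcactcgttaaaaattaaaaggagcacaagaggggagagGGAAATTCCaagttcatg
Cxcl1, chr5:90891145-90891244, + strand: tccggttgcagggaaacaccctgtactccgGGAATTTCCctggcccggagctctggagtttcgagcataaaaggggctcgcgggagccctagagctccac
Il6, chr5:30013014-30013113, + strand: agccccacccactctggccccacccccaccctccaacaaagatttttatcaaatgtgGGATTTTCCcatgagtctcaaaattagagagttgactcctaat
Cxcl1, which fell, and Il6, which rose, thus share the same core with 1 match each.

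Of 7 tested members of the TNF superfamily and receptors list, 5 rose, 1 fell and 1 did not pass (median log2 change 0.50). Tnfsf9, the ligand of the costimulatory receptor 4-1BB, was the member that fell (-3.09 ± 0.13). Tnfsf9 had 30.97 and 37.4 RPKM at 4 h, against 293 and 300.2 RPKM at 2 h. At 1 h it had been at 828 and 959 RPKM. The receptors Tnfrsf14 (1.56 ± 0.14), Cd40 (1.47 ± 0.14), Tnfrsf1a (1.24 ± 0.11) and Tnfrsf1b (0.50 ± 0.11) rose. The Cd40 libraries held 1414 and 1381 RPKM at 4 h, against 478 and 534 RPKM at 2 h. Of the 6 receptors tested, 5 rose, and Ltbr (-0.28) did not pass.

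Of 15 tested members of the NF-kB subunits and IkB proteins list, 7 rose, 3 fell and 5 did not pass (median log2 change 0.20). The precursors of the p50 and p52 subunits, Nfkb1 (0.99 ± 0.11) and Nfkb2 (1.14 ± 0.11), rose, as did the kinases Ikbke (1.12 ± 0.11) and Tbk1 (0.82 ± 0.12), while the inhibitor Nfkbie fell (-0.68 ± 0.12). The level of Nfkb2 was 180.0 and 205 RPKM at 4 h, against 84.3 and 88.7 RPKM at 2 h. The 2 other members that fell were Relb (-0.47) and Nfkbia (-0.31). The median of this list was -0.03 without replicate B at 4 h. Of 26 tested members of the ubiquitin editors and adaptors of NF-kB signalling list, 14 rose, 7 fell and 5 did not pass (median log2 change 0.41). Otud1, a deubiquitinase (1.43 ± 0.17), Myd88, the adaptor of Toll-like receptors (1.43 ± 0.14), Irak3 (1.22 ± 0.13), an inhibitor of that adaptor's kinases, Irak2 (1.18 ± 0.11) and Tax1bp1 (1.17 ± 0.13), a partner of the editing enzyme Tnfaip3, had the larger increases. The Myd88 libraries held 125 and 164 RPKM at 4 h, against 47.3 and 58.8 RPKM at 2 h. Tnfaip3 itself had a log2 change of -0.04 and did not pass.

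Of 32 tested members of the later effector genes of LPS-treated macrophages list, 28 rose, 1 fell and 3 did not pass (median log2 change 1.47). Besides Cfb, Lipg, Nos2, Saa3 and Cd69, the list held Cd274, the inhibitory ligand PD-L1, which rose by 3.004 ± 0.12 log2 units. The level of Cd274 was 496 and 515 RPKM at 4 h, against 56.3 and 68.6 RPKM at 2 h. Ptgs2, the inducible cyclooxygenase, rose by 2.52 ± 0.14. Ptgs2 had 1094 and 1108 RPKM at 4 h, against 189.9 and 193 RPKM at 2 h. The member that fell, named after its values were seen, was Slc7a11, a cystine transporter (-0.32). The Cd274 promoter holds 1 interferon response core, and so does that of Fcgr4, described next. For Cd274 the start used lies downstream of the first base of the gene's full span (chr19:29362107), so its stretch lies inside that span.
Cd274, chr19:29367318-29367437, + strand: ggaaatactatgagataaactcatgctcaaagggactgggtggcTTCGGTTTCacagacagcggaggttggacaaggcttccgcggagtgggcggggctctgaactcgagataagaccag
Fcgr4, chr1:171018806-171018925, + strand: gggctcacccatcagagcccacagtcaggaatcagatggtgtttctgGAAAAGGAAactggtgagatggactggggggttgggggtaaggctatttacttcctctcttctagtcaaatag

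Receptors for antibody stood out among genes of the lysosome and phagocytosis. Of 56 tested members of the lysosome and phagocytosis list, 16 rose, 8 fell and 32 did not pass (median log2 change 0.01). Its median was near 0 and changed sign with quantile normalization (-0.12), so no direction is given for the list. Fcgr4 (3.34 ± 0.11), Fcgr1 (2.57 ± 0.11) and the inhibitory Fcgr2b (2.44 ± 0.11) rose. Fcgr4 measured 296 and 261 RPKM in the 4 h cultures, against 24.96 and 28.4 RPKM in the 2 h cultures. The level of Fcgr1 was 496 and 476 RPKM at 4 h, against 76.7 and 86.0 RPKM at 2 h. Mertk, a receptor for the uptake of apoptotic cells, rose by 1.64 ± 0.12, and Ctsc, the lysosomal protease cathepsin C, by 1.28 ± 0.13. The cathepsins Ctsb and Ctsd, both more abundant than Ctsc, did not pass. Ctsb had 5119 and 4557 RPKM at 4 h, against 4695 and 5187 RPKM at 2 h.

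Of 28 tested members of the macrophage identity list, 7 rose, 6 fell and 15 did not pass (median log2 change 0.01). This median also changed sign with quantile normalization (-0.12). Increases, at 25%, were near the 23.2% of all tested genes, and decreases, at 21.4%, were below their 34.2%. Cebpa, a factor of myeloid differentiation, fell (log2 change -2.14 ± 0.16), to 0.631 and 0.630 RPKM at 4 h, against 5.15 and 7.42 RPKM at 2 h (17 and 17 reads, against 69 and 123 reads). Maf (1.84 ± 0.16) and Irf8 rose. The Maf libraries held 67.5 and 85.6 RPKM at 4 h, against 18.4 and 22.8 RPKM at 2 h. Cx3cr1, the fractalkine receptor, fell (-2.01 ± 0.12). Cx3cr1 measured 4.92 and 5.96 RPKM in the 4 h cultures, against 25.4 and 24.4 RPKM in the 2 h cultures.

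**Figure D3:**
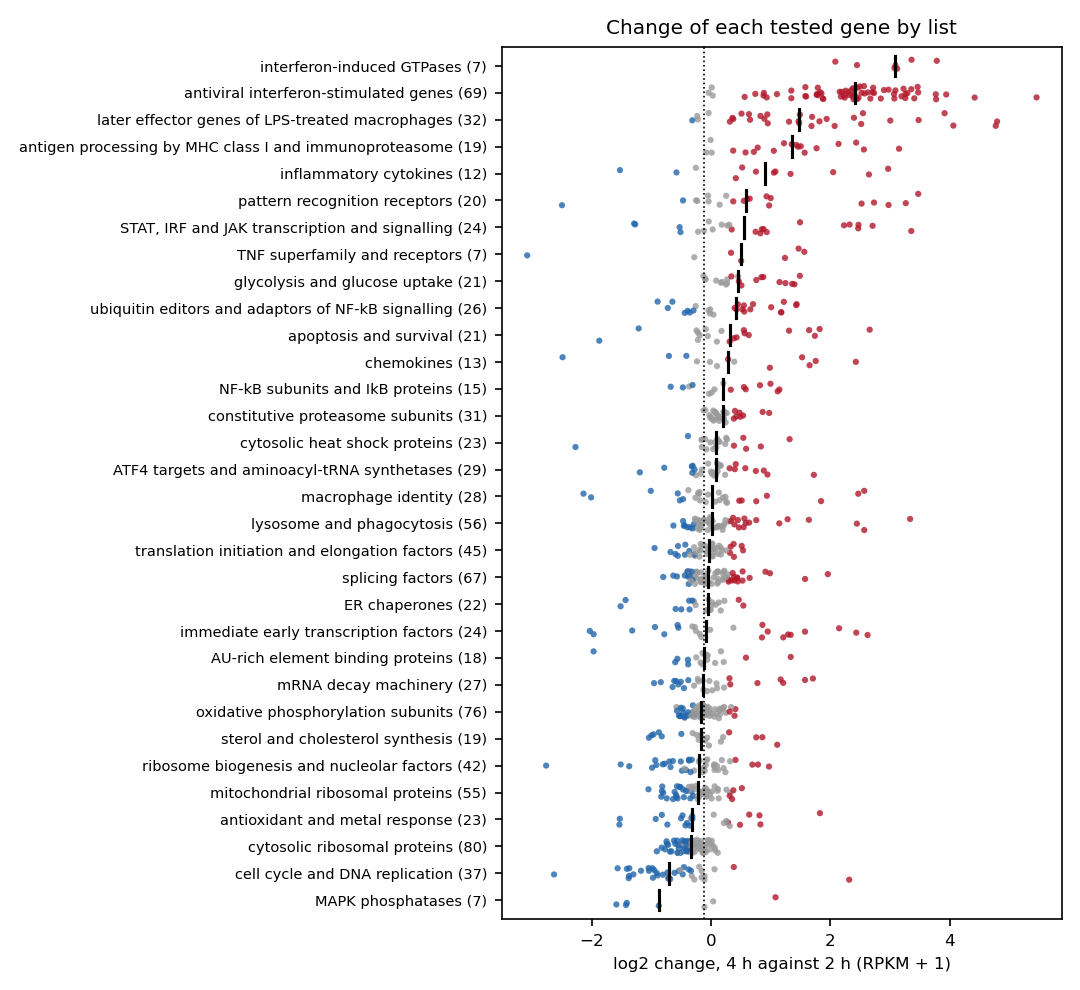
Log2 change between 4 h and 2 h of every tested list member, by list (number of tested genes in parentheses): red points rose, blue points fell, grey points did not pass, black bars are list medians and the dotted line is the median of all tested genes (-0.12). The interferon lists lie furthest right, with medians of 3.09 and 2.40, and the MAPK phosphatases furthest left, at -0.88.

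Of 21 tested members of the glycolysis and glucose uptake list, 11 rose, 0 fell and 10 did not pass (median log2 change 0.45). Slc2a6, a hexose transporter (1.49 ± 0.13), Pfkfb3, which makes the activator of phosphofructokinase (1.40 ± 0.12), Pfkp (1.36 ± 0.12), Hk3 (1.24 ± 0.11) and Hk2 (1.15 ± 0.11) had the larger increases. Pfkfb3 had 92.0 and 103 RPKM at 4 h, against 34.5 and 38.1 RPKM at 2 h. Gapdh did not pass (217 and 208 RPKM at 4 h, against 181 and 133 RPKM at 2 h; log2 change 0.45 ± 0.22, adjusted p 0.090), but it passed without replicate A at 2 h (0.67, adjusted p 0.041), without either replicate at 0 h (adjusted p 0.030 for both), with only the libraries at 2 and 4 h (adjusted p 0.0042), with the replicate block (adjusted p 0.0020) and with limma-voom on recovered reads (adjusted p 0.048). Of 19 tested members of the sterol and cholesterol synthesis list, 4 rose, 6 fell and 9 did not pass (median log2 change -0.18). Both shares, 21.1% and 31.6%, were near the 23.2% and 34.2% of all tested genes. Msmo1 (-0.97 ± 0.11) and Sqle (-1.001 ± 0.11), enzymes of synthesis, Insig1 (-0.88 ± 0.11), a brake on it, and Mylip (-1.04 ± 0.13), which degrades the LDL receptor, fell, whereas Ch25h, which makes an antiviral oxysterol, rose (1.11 ± 0.13). Ch25h measured 223 and 249.1 RPKM in the 4 h cultures, against 105 and 113 RPKM in the 2 h cultures.

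Of 23 tested members of the antioxidant and metal response list, 6 rose, 12 fell and 5 did not pass (median log2 change -0.32). The iron-storage subunits Ftl1 (-1.53 ± 0.21) and Fth1 (-0.93 ± 0.16) were abundant and fell. Ftl1 had 2286 and 2369.9 RPKM at 4 h, against 7692 and 5900.3 RPKM at 2 h. The Fth1 libraries held 2687 and 3425 RPKM at 4 h, against 6289 and 5317 RPKM at 2 h. Srxn1 (-1.54 ± 0.13), a target of the antioxidant factor Nfe2l2, and Gpx1 (-0.83 ± 0.15) also fell. Keap1, which holds Nfe2l2 in check, rose by 1.82 ± 0.13. Keap1 measured 40.2 and 48.7 RPKM in the 4 h cultures, against 10.7 and 12.9 RPKM in the 2 h cultures.

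Immediate early genes split. Of 24 tested members of the immediate early transcription factors list, 10 rose, 7 fell and 7 did not pass (median log2 change -0.09). Fos (2.62 ± 0.14), Jun (2.43 ± 0.16) and the polo-like kinase Plk2 (2.14 ± 0.12) rose from a low at 2 h. Fos had 30.1 and 38.2 RPKM at 4 h, against 4.08 and 5.32 RPKM at 2 h. The Jun libraries held 17.4 and 23.1 RPKM at 4 h, against 2.39 and 3.49 RPKM at 2 h. Their levels at 1 h were 73.2 and 70.3 RPKM for Fos and 38.9 and 38.7 RPKM for Jun, above those at 4 h. Before LPS, Fos stood at 114 and 94.3 RPKM and Jun at 26.2 and 23.3 RPKM. At 4 h Fos was thus still below its level at 0 h (log2 change -1.59, limma adjusted p 5.1e-08). For Jun the change between 4 h and 0 h did not pass (-0.29, limma adjusted p 0.11). Plk2 measured 87.1 and 109 RPKM in the 4 h cultures, against 21.2 and 21.4 RPKM in the 2 h cultures. Btg2, an antiproliferative protein that binds the deadenylase complex, rose by 1.57 ± 0.11. The level of Btg2 was 27.4 and 26.7 RPKM at 4 h, against 8.67 and 8.19 RPKM at 2 h. The promoters of Btg2 and Plk2 hold TGACGTCA, the cyclic AMP response element, a match found in 507 of 27025 promoters (1.88%) and in 27 of 873 promoters of genes that rose (3.09%), so it did not set the genes that rose apart from those that fell (43 of 1277, 3.37%).
Btg2, chr1:134079256-134079335, - strand: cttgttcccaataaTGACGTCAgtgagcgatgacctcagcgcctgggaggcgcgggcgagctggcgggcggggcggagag
Plk2, chr13:110394944-110395043, + strand: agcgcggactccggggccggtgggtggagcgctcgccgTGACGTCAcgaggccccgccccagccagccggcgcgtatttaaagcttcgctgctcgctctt
Egr2 (-2.04 ± 0.16) and Zfp36l1 (-1.97 ± 0.19) went on down. Egr2 had 3.29 and 2.98 RPKM at 4 h, against 18.5 and 13.7 RPKM at 2 h. The median of this list was 0.02 without replicate A at 4 h, and 0.86 over the members with at least 10 RPKM in every library. Fos, Jun and Egr2, each under 10 RPKM at 2 h or 4 h, were not among these members.

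Of 7 tested members of the MAPK phosphatases list, 1 rose, 4 fell and 2 did not pass (median log2 change -0.88). These enzymes switch off MAP kinases. Dusp7 (-1.59 ± 0.19), Dusp4 (-1.43 ± 0.16), Dusp3 (-1.42 ± 0.13) and Dusp5 (-0.88 ± 0.12) fell and Dusp16 rose (1.08 ± 0.12). Dusp4 measured 3.42 and 4.93 RPKM in the 4 h cultures, against 13.4 and 12.2 RPKM in the 2 h cultures. The level of Dusp16 was 55.5 and 57.4 RPKM at 4 h, against 24.7 and 27.8 RPKM at 2 h. Dusp1 and Dusp2, which are induced early, had log2 changes of 0.03 and -0.11 and did not pass.

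The gene that fell most was Frmd6, a FERM domain protein of the Hippo pathway (-3.72 ± 0.13). Frmd6 had 1.26 and 1.70 RPKM at 4 h, against 30.9 and 32.3 RPKM at 2 h. It had been at 22.2 and 27.1 RPKM at 1 h. Kcnk13, a potassium leak channel of myeloid cells, fell (log2 change -3.57 ± 0.11), to 2.09 and 2.02 RPKM at 4 h, against 35.6 and 34.9 RPKM at 2 h. Slco4a1, an organic anion transporter (-3.51 ± 0.13), and Tgfbr1, a receptor kinase for TGF-beta (-3.15 ± 0.11), fell as well. The Tgfbr1 libraries held 12.9 and 13.3 RPKM at 4 h, against 121 and 128 RPKM at 2 h. Errfi1, a feedback inhibitor of EGF receptors (-2.70 ± 0.12), and Plau, the urokinase plasminogen activator (-2.64 ± 0.15), fell from high levels. Errfi1 measured 14.0 and 15.7 RPKM in the 4 h cultures, against 98.3 and 105 RPKM in the 2 h cultures. The level of Plau was 41.0 and 53.4 RPKM at 4 h, against 306 and 287 RPKM at 2 h. Mtss1 (-2.88 ± 0.13), Zswim4 (-3.01 ± 0.12), Lonrf3 (-2.56 ± 0.13) and 1810011H11Rik (-2.997 ± 0.17) complete the larger decreases with the nucleolar and cell cycle genes that follow.

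Of 37 tested members of the cell cycle and DNA replication list, 2 rose, 26 fell and 9 did not pass (median log2 change -0.72). Ccne2, cyclin E2, fell (log2 change -2.64 ± 0.14), to 1.41 and 2.17 RPKM at 4 h, against 16.4 and 15.9 RPKM at 2 h. E2f1, which activates S-phase genes (-1.57 ± 0.14), Rrm2, a subunit of ribonucleotide reductase (-1.41 ± 0.17), and Cdk2 (-1.38 ± 0.14) fell, and so did Gmnn, geminin, which is outside the list (-2.59 ± 0.14). The Gmnn libraries held 4.76 and 5.32 RPKM at 4 h, against 32.8 and 38.1 RPKM at 2 h. Rrm2 measured 12.5 and 15.7 RPKM in the 4 h cultures, against 42.6 and 35.5 RPKM in the 2 h cultures. The 2 members that rose were Ccnd2, cyclin D2 (2.31 ± 0.13), and the kinase inhibitor Cdkn1a (0.38). The level of Ccnd2 was 58.1 and 66.1 RPKM at 4 h, against 11.5 and 11.9 RPKM at 2 h. All 3 cyclin D genes were tested, and Ccnd1 fell (-1.37) while Ccnd3 (-0.16) did not pass.

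Of 42 tested members of the ribosome biogenesis and nucleolar factors list, 4 rose, 18 fell and 20 did not pass (median log2 change -0.20). The shares were 9.52% and 42.9%, against 23.2% and 34.2% of all tested genes. Gnl3, nucleostemin, fell (log2 change -2.77 ± 0.14). The Gnl3 libraries held 3.86 and 5.58 RPKM at 4 h, against 34.5 and 40.8 RPKM at 2 h. Rrs1 (-1.52 ± 0.14), Nop56 (-1.37 ± 0.11), a core protein of the methylation-guiding snoRNPs, and Nmd3 (-0.99 ± 0.11), an export adaptor of the large subunit, fell, while Tcof1 rose (0.97 ± 0.12). Of 80 tested members of the cytosolic ribosomal proteins list, 0 rose, 33 fell and 47 did not pass (median log2 change -0.34). The share that fell was 41.2%, against 34.2% of all tested genes, of which 23.2% rose. The 33 decreases reached -0.91 (Rps27l). The level of Rps27l was 81.3 and 97.0 RPKM at 4 h, against 169 and 167 RPKM at 2 h. Rps12 had 678 and 853 RPKM at 4 h, against 1461 and 1252 RPKM at 2 h. Rps29 passed on all libraries (log2 change -0.74 ± 0.28) but had 1714 and 1019 RPKM at 2 h, and without replicate A at 2 h its change was -0.37 (adjusted p 0.34), with adjusted p 0.14 without replicate A and 0.13 without replicate B at 4 h. Of 55 tested members of the mitochondrial ribosomal proteins list, 4 rose, 20 fell and 31 did not pass (median log2 change -0.22). The share that fell was near the 34.2% of all tested genes. Mrpl42 (-1.05 ± 0.13), Mrpl18 (-0.84 ± 0.11), Mrpl34 (-0.83 ± 0.11), Mrps6 (-0.82 ± 0.13) and Mrpl33 (-0.80 ± 0.13) had the larger decreases. Of 76 tested members of the oxidative phosphorylation subunits list, 3 rose, 14 fell and 59 did not pass (median log2 change -0.16). Only 18.4% fell, below the 34.2% of all tested genes. Among the members that passed, the 5 largest changes were decreases, Cox8a (-0.57 ± 0.18), Uqcr11 (-0.54 ± 0.16), Ndufa6 (-0.52 ± 0.14), Ndufc1 (-0.52 ± 0.13) and Cox7c (-0.51 ± 0.20). For 4 of these the adjusted p went above 0.05 when a library was left out. Cox7c did not pass without any of the 4 libraries in turn (adjusted p 0.14 and 0.074 without replicates A and B at 2 h, 0.12 and 0.15 without A and B at 4 h). Cox8a did not pass without replicate B at 2 h (0.067), or A (0.058) or B (0.071) at 4 h, Uqcr11 without replicate A at 2 h (0.060), or A (0.054) or B (0.053) at 4 h, and Ndufa6 without replicate A at 4 h (0.076).

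Coding length moved with the change. Among the genes with the shortest coding length (72 to 628 bases, 916 genes) 11.5% rose and 42.7% fell, with a median of -0.27, whereas among those with the longest (2204 to 21967 bases, 916 genes) 33.4% rose and 28.1% fell, with a median of 0.04. Genes of 500 bases or less that encode no ribosomal protein had a median of -0.30 (55 of 546 rose and 245 fell), close to the -0.34 of the ribosomal protein genes. The part of coding length in the changes of ribosomal protein and respiratory chain genes was not tested.

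Of 67 tested members of the splicing factors list, 16 rose, 10 fell and 41 did not pass (median log2 change -0.05). Increases, at 23.9%, were near the 23.2% of all tested genes, and decreases, at 14.9%, were below their 34.2%. Prpf38a (1.96 ± 0.16) and Tra2a (1.57 ± 0.12) had the larger increases and Srsf5 the larger decrease (-0.80 ± 0.10). Prpf38a had 67.2 and 83.5 RPKM at 4 h, against 15.3 and 22.4 RPKM at 2 h. Of 27 tested members of the mRNA decay machinery list, 7 rose, 9 fell and 11 did not pass (median log2 change -0.13). Both shares, 25.9% and 33.3%, were near the 23.2% and 34.2% of all tested genes. The exonuclease Xrn1 (1.71 ± 0.13) and the decapping enzyme Dcp2 (1.21 ± 0.11) rose, and Lsm2, a subunit of the ring that binds the ends of decaying mRNA, fell (-0.96 ± 0.15). Xrn1 measured 18.6 and 20.6 RPKM in the 4 h cultures, against 5.10 and 5.50 RPKM in the 2 h cultures. With quantile normalization the median of the decay list was 0.02. Of 45 tested members of the translation initiation and elongation factors list, 6 rose, 9 fell and 30 did not pass (median log2 change -0.05). Both shares, 13.3% and 20%, were below the 23.2% and 34.2% of all tested genes. Eif5 (-0.95 ± 0.13), the cap-binding protein Eif4e (-0.68 ± 0.17), Eif3a (-0.60 ± 0.13), Eif4a2 (-0.56 ± 0.13) and Eif1b (-0.56 ± 0.15) fell; Eif1b no longer passed without replicate A at 2 h (adjusted p 0.061) or replicate A at 4 h (adjusted p 0.091), nor Eif4e without replicate A at 2 h (adjusted p 0.051).

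Of 18 tested members of the AU-rich element binding proteins list, 2 rose, 5 fell and 11 did not pass (median log2 change -0.12). Zfp36 rose by 1.33 ± 0.14 log2 units while its relative Zfp36l1 fell. The Zfp36 libraries held 205 and 266 RPKM at 4 h, against 92.7 and 91.3 RPKM at 2 h. Zfp36l1 measured 0.493 and 0.871 RPKM in the 4 h cultures, against 6.18 and 4.99 RPKM in the 2 h cultures. Zfp36l1 was near the floor of the scale at 4 h (13 and 23 reads, against 81 and 81 reads at 2 h). Cpeb4 rose (0.58 ± 0.12), and Tial1 (-0.60 ± 0.14) and Ybx1 (-0.57 ± 0.15) fell, the last not without replicate A at 4 h (adjusted p 0.064). Pabpc1 had 152 and 182 RPKM at 4 h, against 230 and 180 RPKM at 2 h, and Pcbp1 had 41.8 and 54.5 RPKM at 4 h, against 54.0 and 52.1 RPKM at 2 h. Neither passed the test. Pcbp2 fell (log2 change -0.39 ± 0.14), but without replicate A at 2 h (adjusted p 0.23) or at 4 h (adjusted p 0.26) it did not pass.

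Of 29 tested members of the ATF4 targets and aminoacyl-tRNA synthetases list, 8 rose, 6 fell and 15 did not pass (median log2 change 0.08). The shares were 27.6% and 20.7%, against 23.2% and 34.2% of all tested genes. Wars, the tryptophan enzyme, which interferon is known to induce, rose by 1.72 ± 0.11. Wars had 49.9 and 58.7 RPKM at 4 h, against 15.4 and 16.0 RPKM at 2 h. Atf4 (-0.79 ± 0.12) and its partner Cebpg (-1.20 ± 0.15) fell, and Rars (0.94 ± 0.13) and Farsa (0.88 ± 0.11) rose. Of 22 tested members of the ER chaperones list, 2 rose, 7 fell and 13 did not pass (median log2 change -0.06). Decreases, at 31.8%, were near the 34.2% of all tested genes. Herpud1 (-1.52 ± 0.12), of ER-associated degradation, and the co-chaperone Dnajb9 (-1.44 ± 0.14) fell. Herpud1 measured 19.4 and 20.4 RPKM in the 4 h cultures, against 54.6 and 63.7 RPKM in the 2 h cultures. Of 23 tested members of the cytosolic heat shock proteins list, 5 rose, 2 fell and 16 did not pass (median log2 change 0.08). Increases, at 21.7%, were near the 23.2% of all tested genes. Dnajb4 fell (-2.28 ± 0.14) and Dnaja2 rose (1.32 ± 0.12). Dnajb4 had 4.604 and 6.73 RPKM at 4 h, against 30.7 and 31.05 RPKM at 2 h. The median of the heat shock list was -0.03 with quantile normalization, and that of the ER list was 0.11 without replicate B at 2 h.

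Of 21 tested members of the apoptosis and survival list, 11 rose, 2 fell and 8 did not pass (median log2 change 0.31). Mlkl, the executioner of necroptosis (2.66 ± 0.15), and the caspases Casp1 (1.82 ± 0.12) and Casp8 (1.74 ± 0.13) rose. Mlkl measured 62.6 and 76.9 RPKM in the 4 h cultures, against 9.44 and 10.9 RPKM in the 2 h cultures. The level of Casp1 was 175 and 190.0 RPKM at 4 h, against 46.5 and 55.9 RPKM at 2 h. Bcl2l11, the death-promoting protein Bim, fell (log2 change -1.88 ± 0.13), and the other member that fell was the survival gene Bcl2l1 (-1.22). Bcl2l11 had 62.5 and 86.6 RPKM at 4 h, against 280.4 and 266 RPKM at 2 h. Of 15 tested members of the C2H2 zinc finger genes named Zfp list, 4 rose, 10 fell and 1 did not pass (median log2 change -0.50). Of these, Zfp710 (1.76 ± 0.12), Zfp800 (1.69 ± 0.14) and Zfp281 (1.12 ± 0.13) rose, and Zfp146 (-1.54 ± 0.15) and Zfp263 (-1.01 ± 0.12) fell.

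The change between 4 h and 2 h was then tested against the change over the interval before it, 2 h against 1 h. In 602 genes (12.5%) it was the higher and in 688 (14.3%) the lower. Both intervals use the 2 h libraries, and without replicate A at 2 h the counts were 354 and 415, and without replicate B at 2 h 472 and 376. The genes with the lowest p in the upward direction were Fos (difference 6.30 ± 0.24 log2 units), Jun (5.79 ± 0.27), Plk2 (5.02 ± 0.21), Ms4a4c (5.06 ± 0.25) and Btg2 (4.596 ± 0.20), and in the downward direction Frmd6 (-4.07 ± 0.23), Tgfbr1 (-3.64 ± 0.19), Kcnk13 (-3.26 ± 0.19), P2ry2, a nucleotide receptor (-3.15 ± 0.20), and Sgms1, a sphingomyelin synthase (-2.96 ± 0.18). P2ry2 measured 8.03 and 8.26 RPKM in the 4 h cultures, against 38.4 and 40.8 RPKM in the 2 h cultures. The level of Sgms1 was 20.6 and 21.97 RPKM at 4 h, against 106 and 103 RPKM at 2 h. P2ry2 had stood at 18.7 and 19.9 RPKM at 1 h and Sgms1 at 62.4 and 64.6 RPKM, so the levels of both were highest at 2 h.

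Against the interval after it, 6 h against 4 h, the change was higher in 828 genes (17.2%) and lower in 598 (12.4%). Here both intervals use the 4 h libraries, and which direction had more calls depended on the libraries and the scaling: 516 genes were higher and 625 lower without replicate B at 4 h, 937 and 383 without replicate A at 4 h, 781 and 867 with median centring, and 815 and 807 with quantile normalization. Il6 (4.25 ± 0.21), Lipg (3.80 ± 0.19), Ifit3b (3.75 ± 0.21), Themis2 (3.74 ± 0.21) and Usp18 (3.71 ± 0.20) led upward. Kcnk13 (-4.91 ± 0.19), Zswim4 (-4.50 ± 0.21), Rab3il1, an exchange factor of Rab proteins (-3.76 ± 0.19), Slc8b1, the mitochondrial sodium-calcium exchanger (-3.67 ± 0.19), and Rab7b, a GTPase of endosomal traffic (-3.48 ± 0.18), led downward, and their lowest level was at 4 h. Rab7b had 14.8 and 13.9 RPKM at 4 h, against 42.6 and 46.2 RPKM at 2 h, and 58.5 and 55.9 RPKM at 6 h. Slc8b1 had 5.97 and 5.99 RPKM at 4 h, against 28.0 and 27.3 RPKM at 2 h, and 21.4 and 20.0 RPKM at 6 h. All of these 5 genes were lower at 4 h than in any library of the other times, and this trough was chosen after the values were seen.

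**Figure D4:**
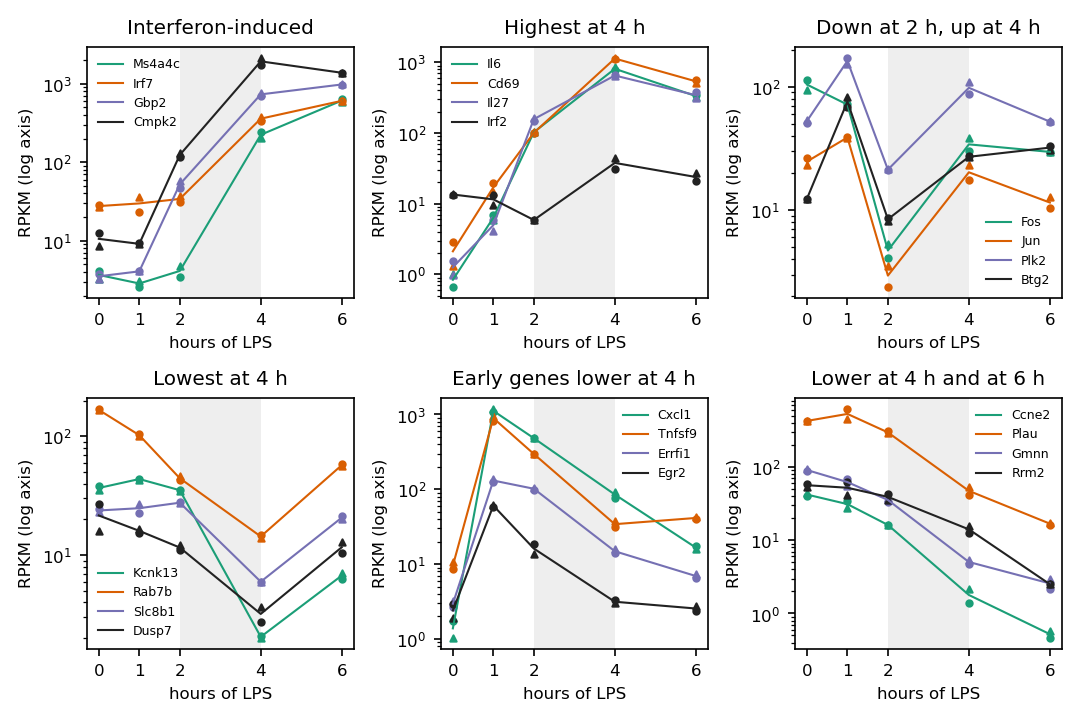
RPKM (log axis) against hours of LPS for 4 genes in each panel; circles are replicate A, triangles replicate B, lines join the means of the 2, and the grey band marks 2 h to 4 h. Fos and Jun stand at 2.39 to 5.32 RPKM at 2 h and 17.4 to 38.2 RPKM at 4 h, and Kcnk13, Rab7b, Slc8b1 and Dusp7 are lowest at 4 h.

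Genes that LPS had moved within 1 h were examined next; the 1 h and 0 h libraries are not part of the 4 h against 2 h contrast, although all share 1 estimate of spread. Of the 371 genes higher at 1 h than at 0 h, 138 (37.2%) rose and 146 (39.4%) fell between 2 h and 4 h, against 23.2% and 34.2% of all tested genes. They made up 12.4% of all genes that rose, 8.90% of all that fell, and 371 of the 4805 genes tested. Of the 438 genes lower at 1 h than at 0 h, 114 (26.0%) rose and 163 (37.2%) fell. The early induced genes thus moved in both directions in this interval. Of the genes that rose, 77.4% had not passed the test at 1 h, a lower share than among all tested genes (3996 of 4805).

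Ribosome footprints from the same cultures were compared in the same way. Of 5277 genes tested, 422 (8.0%) rose and 436 (8.26%) fell between 2 h and 4 h. Depth was lower, at 3.5 M and 2.0 M mapped reads at 4 h, against 2.31 M and 1.67 M at 2 h, and the counts moved with single libraries: 180 rose and 100 fell without replicate A at 4 h, 179 and 134 without replicate B at 4 h, 281 and 254 without replicate A at 2 h, and 364 and 207 without replicate B at 2 h. Of the 1083 genes that rose in RNA and were tested in footprints, 399 (36.8%) rose in footprints and 0 fell, and 1032 had a change above 0. Of the 1544 that fell in RNA, 351 (22.7%) fell in footprints and 0 rose. Their median changes were 0.83 in footprints and 0.82 in RNA for the genes that rose, and -0.72 and -0.59 for those that fell. Lipg had 772 and 767 RPKM in footprints at 4 h, against 32.9 and 42.1 RPKM at 2 h (log2 change 4.33 ± 0.27, SE). Tnfsf9 had 105 and 83.4 RPKM in footprints at 4 h, against 917 and 1048 RPKM at 2 h (log2 change -3.37 ± 0.22, SE). In footprints 62 of 69 antiviral genes and 7 of 7 interferon-induced GTPases rose.

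The footprint change was tested against the RNA change in the 4621 genes that passed both filters. Of these, 0 passed in either direction with limma (lowest adjusted p 0.994), and 190 had an unadjusted p under 0.05. Footprint replicates differed with a standard deviation of 0.35 log2 units at 4 h and 0.70 at 2 h. It was largest at 1 h, at 0.94, and all times share 1 estimate of spread in the fit. For Tnf the footprint change was 0.30 and the RNA change -0.26 log2 units, a difference of 0.56 ± 0.42 (adjusted p 0.997). For Il6 the difference was 0.51 ± 0.85 (adjusted p 0.997), and for Zfp36 0.32 ± 0.28 (adjusted p 0.997).

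**Figure D5:**
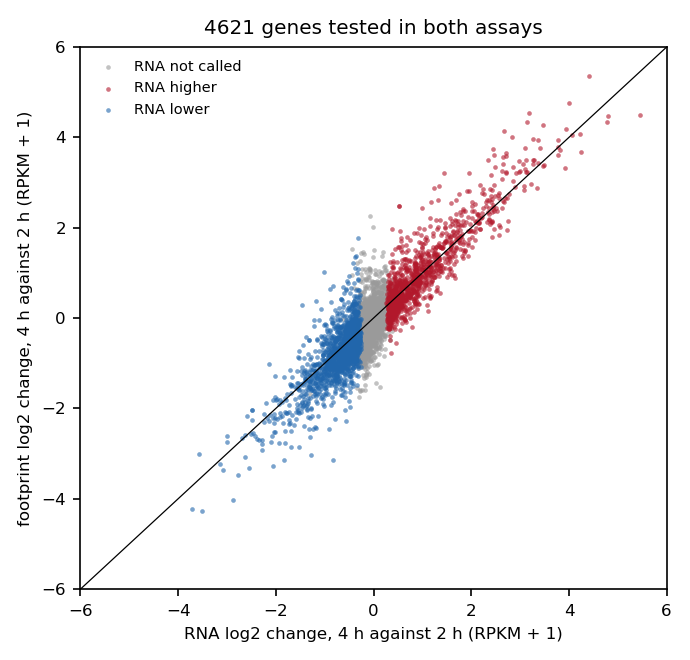
Footprint change against RNA change between 4 h and 2 h (both log2 of RPKM + 1) for the 4621 genes tested in both assays, coloured by the RNA call (red higher, blue lower, grey not called); the line marks equal change. Genes called higher in RNA have a median of 0.83 in footprints and genes called lower -0.72.

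The 280 mRNAs with a deposited Zfp36 CLIP-seq peak were set beside these changes. By the RefSeq annotation of the listed transcript, the centre of the deposited peak lay in the 3'UTR in 65, in an intron in 193, in coding sequence in 17 and in the 5'UTR in 4, and 1 was not placed. Of the 108 that were tested, 47 (43.5%) rose and 24 (22.2%) fell, against 23.2% and 34.2% of all tested genes, with a median of 0.19. Of the 58 tested mRNAs with the peak in the 3'UTR, 32 (55.2%) rose and 6 (10.3%) fell, with a median of 0.40. CLIP-seq recovers abundant mRNAs more readily, and its libraries and input were made at 4 h of LPS, a time compared here. The set of peaks was thus not chosen independently of the level at 4 h. Among all genes, those with a mean of 82.9 RPKM or more over the 10 RNA libraries rose in 29.6% and fell in 26.1%. The part of abundance, at 4 h or over all times, was not tested. Among mRNAs with a peak, Cd274, Il6, Ptgs2, Slc25a22, a mitochondrial glutamate carrier, Ccl12 and Usb1, an RNA-processing enzyme, rose most, all 6 with the peak in the 3'UTR. Slc25a22 had 40.4 and 46.8 RPKM at 4 h, against 6.59 and 7.73 RPKM at 2 h. The Usb1 libraries held 133 and 152 RPKM at 4 h, against 26.3 and 24.9 RPKM at 2 h. Cxcl1, Peak1, Pparg, Fam20c, Dyrk1a and Rab31 fell most, and of these only Cxcl1 had its peak in the 3'UTR, those of the 5 others being intronic. Pparg measured 3.16 and 4.83 RPKM in the 4 h cultures, against 17.1 and 18.3 RPKM in the 2 h cultures. The level of Peak1 was 1.87 and 1.86 RPKM at 4 h, against 13.0 and 13.1 RPKM at 2 h.

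The sites of mRNAs named here are shown because they carry TATTTATT, the AU-rich element that Zfp36 binds, which was in 23 of 65 3'UTR peaks (35.4%) and in 0 of 193 intronic ones on the sense strand. Each line gives 30 bases from the peak (mm10, RNA strand written as DNA) with matches in capitals.
Il6, chr5:30019721-30019750, + strand: aagttaatttatgattgaTATTTATTattt
Ccl12, chr11:82103271-82103300, + strand: ccccacgggcagtgtgaTATTTATTatgat
Slc25a22, chr7:141430663-141430692, - strand: acacccagaatTATTTATTgaattttccgt
Ccl3, chr11:83648002-83648031, - strand: gtatttgtgacTATTTATTctgaaagactt
Cpeb4, chr11:31935371-31935400, + strand: ggaggttgtagTATTTATTctagcatttta
Tnf, chr17:35199688-35199717, - strand: tttgcacttatTATTTATTATTTATTTATT
Cxcl1, chr5:90892748-90892777, + strand: cattaaactaaTATTTATTgggagaccact
The element stood in peaks of mRNAs that rose (Il6, Ccl12, Slc25a22, Ccl3, Cpeb4), of Tnf, which did not pass the test, and of Cxcl1, which fell. The Tnf peak holds 6 overlapping matches and each of the others 1. Among tested mRNAs with a 3'UTR peak, 11 of 32 that rose, 3 of 6 that fell and 8 of 20 that did not pass held the element.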

How the data were processed

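RNA-seq of rRNA-depleted total RNA and ribosome profiling were each done on 10 BMDM cultures. The authors trimmed reads, removed rRNA, tRNA and mitochondrial reads, aligned the rest to mm10 with TopHat and counted coding sequence with HTSeq. The deposited values are RPKM per gene. The whole-read steps in these RPKM values gave back read counts (98.4% to 98.9% of RNA values under 1000 reads whole within 0.06 read). Zfp36 peaks and their score and fold over input are as deposited by the authors, from 2 CLIP libraries and 1 input, called against input. A sheet repeating the values of the genes the authors selected, with their cluster, and the p-value and RPKM columns deposited with the peaks were not used.

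Genes whose 10 libraries of an assay averaged 10 RPKM or more were tested on log2(RPKM + 1), with a pseudocount of 1, by limma 3.58.1 (R 4.3.3) with a mean-variance trend, 1 coefficient per time and 5 residual degrees of freedom. Benjamini-Hochberg adjustment ran over all tested genes at a threshold of 0.05. With 2 cultures a time, no exact permutation test of a single gene can go below p = 0.333. The 38 gene lists and the genes described were chosen with earlier results of these data known. Named genes were the 15 largest increases and 15 largest decreases with separate libraries, up to 5 called members per list with the largest change, genes the study discusses, up to 5 genes per direction in each difference test, and 6 genes per direction with a Zfp36 peak; others are said to be chosen after their values were seen or stand as context of a list, and some that the rule names are not reported here. The scripts were tested on simulated data. Alternatives changed the pseudocount, filter, normalization, block, trend, weights and libraries; limma-voom on recovered reads and a fit of the 8 libraries at 1, 2, 4 and 6 h were chosen after the data had been seen.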

Additional observations from a re-analysis of the deposited data

Results flagged for a closer look

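In 20 comparisons a gene's change between 4 h and 2 h differed, by a test of the difference itself, from its change over a neighbouring interval; these are the genes with the lowest p in each direction. Values are differences of log2 changes, and each neighbouring interval shares libraries with the 4 h against 2 h one. Against 2 h minus 1 h, the change was higher for Fos (6.30), Jun (5.79), Ms4a4c (5.06), Plk2 (5.02) and Btg2 (4.596), and lower for Frmd6 (-4.07), Tgfbr1 (-3.64), Kcnk13 (-3.26), P2ry2 (-3.15) and Sgms1 (-2.96). Against 6 h minus 4 h, it was higher for Il6 (4.25), Lipg (3.80), Ifit3b (3.75), Themis2 (3.74) and Usp18 (3.71), and lower for Kcnk13 (-4.91), Zswim4 (-4.50), Rab3il1 (-3.76), Slc8b1 (-3.67) and Rab7b (-3.48). Kcnk13 stands in both, with its lowest level at 4 h.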

How the results depend on the processing

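No called gene named here changed direction under any alternative run, but which direction had more calls did change in some comparisons. Median centring gave 781 higher and 867 lower than over 6 h against 4 h (828 and 598 as reported), and 494 increases and 345 decreases in footprints (422 and 436). With at least 10 RPKM required in every library, the filter the study states, 657 genes rose and 709 fell in RNA, 319 and 223 changes were higher and lower than over 2 h against 1 h, 404 and 201 than over 6 h against 4 h, and 257 and 263 genes rose and fell in footprints; fewer genes were tested. The footprint decreases numbered 680 with library weights and 680 with only the 2 and 4 h libraries; the cause was not tested. With only peaks centred in the 3'UTR, 6 mRNAs with a Zfp36 peak fell. Leaving out each of the 10 libraries in turn gave 902 to 1149 increases and 1206 to 1745 decreases in RNA, 354 to 675 and 376 to 864 changes higher and lower than over 2 h against 1 h, 516 to 937 and 383 to 625 than over 6 h against 4 h, and 179 to 545 increases and 100 to 606 decreases in footprints; where an arm kept 1 culture, it was assumed to vary like the other times. Footprint minus RNA changes stayed at 0 calls in each of these fits. limma-voom on recovered reads, added after the data had been seen, tested 4579 genes and called 1089 higher and 1537 lower, sharing 2553 of 2613 calls.

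Deviations of same-lettered cultures correlated at r = 0.0906 to 0.542 over the 10 pairs of times, and 0.176 for 2 h and 4 h. All were positive, so cultures of a letter may share a component that the main fit does not hold. The check used did not treat the letters as pairs, the labels do not settle it, and the main fit had no replicate block. With the letter as a replicate block, 1172 genes rose and 1813 fell in RNA, 712 and 875 changes were higher and lower than over 2 h against 1 h, 947 and 690 than over 6 h against 4 h, 392 and 396 genes rose and fell in footprints, and 0 differed between footprints and RNA. Among the 199 named genes the block changed the call of Gapdh (adjusted p 0.0020).

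Quantile normalization moved the medians of 22 lists by more than the replicate spread and left 11 within it, and the filter on every library moved 13 and left 18. Under that filter the median of inflammatory cytokines was -0.26 and that of immediate early factors 0.86; the other medians that changed sign were close to 0 as reported, the farthest being 0.20 for NF-kB subunits and IkB proteins.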
